A study of Mus musculus with 10 samples.

Results

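The collagen genes of the mouse heart were described as the protein-coding genes of the GENCODE annotation of GRCm39 whose symbol has the form Col, a type number, the letter a and a chain number. The rule found 44 such genes among the 78298 rows of the count table, of which 11 encode chains of fibrillar types, 8 encode chains of basement membrane types and 25 encode chains of other types. The membrane class holds the 6 chains of type IV with Col15a1 and Col18a1, whose products lie at basement membranes. The RNA came from the hearts of female C57BL/6J-background mice and was sequenced in bulk. By their labels 5 libraries are wild type and 5 carry a germline knockout of p38δ, the stress-activated kinase encoded by Mapk13. All mice had received 1 intraperitoneal injection of doxorubicin, an anthracycline that damages heart muscle, at 30 mg/kg, and hearts were taken 72 h later. No untreated heart was in the comparison, so the values say how collagen transcripts differed with the genotype label after the drug and not what the drug did to them. The age of the mice and the exons removed are not given in the labels.

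Collagens are secreted or membrane proteins built of chains that wind around each other into a rod-like helix. Fibrillar types I, III and V form the tensile fibres of the heart's interstitium and are made mainly by fibroblasts. Type IV forms the sheet-like network under endothelium and around each muscle cell, type VI forms beaded microfibrils at the cell surface, and the remaining types decorate fibrils, form hexagonal nets or cross membranes. Excess fibrillar collagen is the hallmark of cardiac fibrosis.

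No collagen gene differed between the groups by the test across all genes. Of the 44 genes, 31 passed the filter on low counts, and 0 of these 31 were called higher or lower in the knockout-labelled hearts (edgeR quasi-likelihood test, Benjamini-Hochberg adjusted p under 0.05 over all genes, lowest adjusted p among collagens 0.572). Over all 16700 tested genes 0.353% were called, 0.24% higher and 0.114% lower. DESeq2 and limma voom with quality weights also called 0 collagen genes, although they called 0.608% and 0.545% of all genes. An unadjusted p under 0.05 was found for 3 of 31 collagen genes by edgeR, against 6.86% of all tested genes. By voom it was found for 2 of 31 (8.32%). DESeq2 was run without that filter on low counts and gave 44 collagen genes a fold change and 38 an adjusted p. It found 2 collagen genes at an unadjusted p under 0.05, against 3.55% of the 42235 genes to which it gave a p. Without wild-type library 1, edgeR again called 0 collagen genes (0.446% of all tested genes) and 1 had an unadjusted p under 0.05 (6.02%). Without knockout library 4 it called 0 higher (0.212%) and 0 lower (0.118%), with 4 at an unadjusted p under 0.05 (6.66%). Without both it called 0 (0.521%), with 3 at an unadjusted p under 0.05 (7.8%). In 0 of the 31 with all libraries did the 5 libraries of a group all lie above the 5 of the other, a pattern shown, higher and lower, by 0.88% and 0.898% of all tested genes. The count was also 0 without wild-type library 1, against 1.36% and 1.35% of all genes. Col4a1, Col4a2 and Col4a5 varied little between hearts of the same label, and several fibrillar, fibril-associated and other basement membrane genes varied widely.

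The libraries held 21403189 to 40627138 counts each. The targeted gene went against the labels. Mapk13 had 292, 5, 2, 1 and 4 counts in wild-type-labelled libraries 1 to 5 and 12, 10, 10, 15 and 9 in the knockout-labelled ones, so wild-type libraries 2 to 5 had fewer counts than any knockout library. Which exons were removed is not given, so reads from the rest of the gene cannot be told apart from intact transcript. Wild type and knockout are therefore the libraries' labels throughout, and every direction given here rests on those labels. Cardiomyocyte genes were abundant in every library, with a summed level of the 10 markers, among them Myh6 and Tnnt2, from 25688 to 72838 CPM (counts scaled to a common library size with TMM factors). Wild-type library 1 stood apart. In it 12 of 12 airway and lung markers reached 1 CPM, with a sum of 2212 CPM. The other 9 libraries had 1 to 6 of 12 and sums of 53.9 to 253 CPM. Hopx, at 53.4 to 126.5 CPM, made up most of those sums except in wild-type library 3. It stood at 55.3 CPM in wild-type library 1. Wild-type library 3 had the 6 of 12, with Scgb1a1 at 68.3 CPM and Bpifa1 at 82.1 CPM. The atrial list summed to 1522 CPM in wild-type library 1 against 88.8 to 378 CPM elsewhere. The 378 CPM were in wild-type library 2, with Bmp10 at 34.9 CPM and Myl7 at 25.2 CPM. Outside wild-type libraries 1 and 2 these genes reached at most 0.0962 and 1.71 CPM. Values without wild-type library 1 still include wild-type libraries 2 and 3. For the 12 cartilage markers the sum in wild-type library 1 was 42.4 CPM, with 26.5 CPM from Cytl1, against 4.54 to 12.9 CPM elsewhere. The cartilage matrix gene Matn3 had no reads in wild-type library 1, and Sox9, at 1.82 CPM, lay within the range of the others. The fibroblast list summed to 3305 CPM in that library. It summed to 1832 to 2134 CPM in the other wild-type-labelled libraries and to 1612 to 1771 CPM in the knockout-labelled ones. The fibroblast sum was thus higher in every wild-type-labelled library, with or without library 1. Of its 12 genes, 0 were called by edgeR. Wild-type library 1 had a macrophage sum of 542 CPM against 124 to 191 CPM. Its mesothelial list summed to 189 CPM against 24.3 to 65.3 CPM, and its adipocyte list to 1627 CPM against 804 to 1297 CPM. In the adipocyte list Adipoq was at 87.8 CPM against at most 2.92 CPM, while Fabp4 and Plin4 lay within the range of the others. The part of these markers in the collagen values was not tested. In knockout library 4 the smooth muscle actin gene Acta2 stood at 123.6 CPM, where the other libraries had 15.9 to 73.2 CPM, and the cross-linking enzyme gene Lox at 3.28 CPM, where they had 8.03 to 22.0 CPM. For many of the values that these libraries move, though not for all, the value without them is also given. In bulk tissue, fewer cells of a type and less RNA per cell cannot be told apart.

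Per exon length the most abundant collagen transcripts were those of the basement membrane network. Col4a1 (chromosome 8, 11248423 to 11362826) and Col4a2 (chromosome 8, 11362471 to 11499287) stood at 23.8 and 19.6 CPM per kb of annotated exon on average over the 10 libraries. The next were Col4a5 at 4.96, the microfibril gene Col6a1 at 4.83 and Col3a1 at 4.27 CPM per kb. The type I chains Col1a2 and Col1a1 stood at 3.02 and 2.25 CPM per kb. Lengths are the union of annotated exons. With the longest annotated transcript instead, Col4a1 and Col4a2 still led at 26.9 and 20.9 CPM per kb, and Col3a1, Col4a5 and Col1a2 followed at 7.75, 7.05 and 7.04. Basement membrane genes carried 46.1% to 66.5% of all collagen CPM in the wild-type-labelled libraries and 50.8% to 67.7% in the knockout-labelled ones. The lowest share in each group belonged to wild-type library 1 and knockout library 4, and in the other 8 libraries the share lay between 60.5% and 67.7%.

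**Figure D1:**
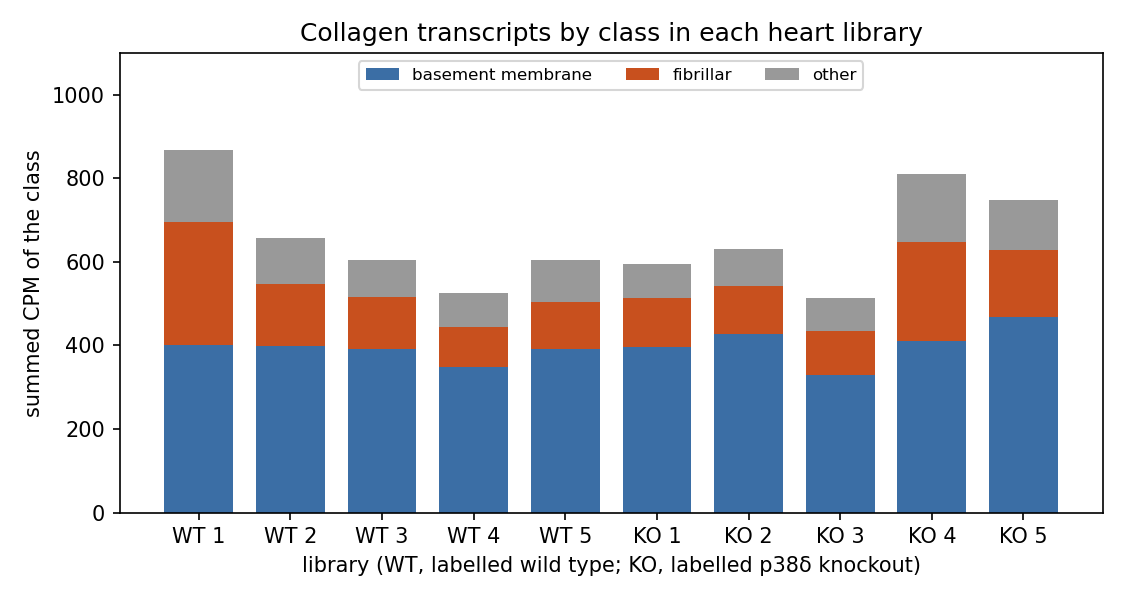
Stacked bars give the summed CPM of basement membrane, fibrillar and other collagen genes in each library. The basement membrane part runs from 330 to 468 CPM, whereas the fibrillar part is 295 CPM in wild type 1 and 236 CPM in knockout 4 and 94.1 to 160 CPM in the other 8.

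In CPM, the fibrillar genes summed to 295, 149, 126, 94.1 and 115 in wild-type libraries 1 to 5 and to 118, 115, 104, 236 and 160.0 in knockout libraries 1 to 5. The means were 156 ± 80.3 and 147 ± 54.4 CPM (SD, n = 5 each), a gap far smaller than the spread within either group. Without the highest library of each group they were 121 ± 23.0 and 124 ± 24.5 CPM (SD, n = 4 each). Basement membrane genes summed to 386 ± 20.95 and 407 ± 50.4 CPM (SD, n = 5 each), and the other types to 110 ± 36.8 and 106 ± 35.8 CPM.

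Short stretches of promoter are shown for a pair of fibrillar genes that were high in the same hearts, Col3a1 and Col1a2, and for Col5a3, which did not follow them. They come from the RefSeq windows before each gene's start (table build GRCm38.p6), were found once each on GRCm39, and were trimmed of annotated exon. Each is written 5′ to 3′ on the gene's strand, and capitals mark 3 promoter motifs searched on either strand. These are the TATA box, searched as TATAAA. The CCAAT box was searched by its own letters. The GC box was searched as GGGCGG. The Col3a1 stretch is chr1:45350448-45350697 (plus strand), that of Col1a2 chr6:4505370-4505492 (plus strand) and that of Col5a3 chr9:20726419-20726613 (minus strand). The Col1a2 stretch lies before the RefSeq start but inside the longer interval that GENCODE gives for the gene.
Col3a1 promoter: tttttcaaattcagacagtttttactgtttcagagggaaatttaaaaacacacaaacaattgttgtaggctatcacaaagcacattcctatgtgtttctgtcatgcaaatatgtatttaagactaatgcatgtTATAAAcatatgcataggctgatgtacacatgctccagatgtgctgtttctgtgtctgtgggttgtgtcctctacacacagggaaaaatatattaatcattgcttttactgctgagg
Col1a2 promoter: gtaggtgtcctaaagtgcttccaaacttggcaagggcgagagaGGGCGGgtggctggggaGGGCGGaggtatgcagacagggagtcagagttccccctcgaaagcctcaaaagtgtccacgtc
Col5a3 promoter: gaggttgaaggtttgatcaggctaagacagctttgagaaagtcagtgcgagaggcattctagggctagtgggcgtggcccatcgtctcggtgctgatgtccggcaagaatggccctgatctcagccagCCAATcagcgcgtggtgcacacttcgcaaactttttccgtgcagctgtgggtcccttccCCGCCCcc
The Col3a1 stretch of 250 bases held 1 TATAAA, 117 bases before the RefSeq start, a motif in 12.4% of all RefSeq windows over the same positions. Its GC content was 35.2%, against 59.3% for Col1a2 and 57.9% for Col5a3. The stretches span unlike positions before the RefSeq start, bases 250 to 1 for Col3a1, 248 to 126 for Col1a2 and 250 to 56 for Col5a3. GC content and motifs are therefore not compared at the same positions. In Col1a2 the 123 bases held 2 GGGCGG, a motif that 13.3% of windows hold over the same positions. The 195 bases of Col5a3 held 1 CCAAT (27.6% of windows) and 1 GGGCGG on the opposite strand (23.8%). These matches describe letters and are not binding sites, and RefSeq windows for 35 of the 44 genes were found.

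Among the fibrillar genes, the type III chain Col3a1 (chromosome 1, 45350698 to 45395840), a partner of type I in compliant tissue, varied most. It stood at 107, 42.7, 32.5, 21.6 and 21.2 CPM in wild-type libraries 1 to 5 and at 25.9, 23.8, 24.7, 99.8 and 39.7 CPM in knockout libraries 1 to 5. A single heart of each label was thus several times above its group, and the groups overlapped throughout (log2 fold change, knockout minus wild type, -0.08 ± 0.56 SE, adjusted p = 0.985 by edgeR). The value was 0.54 without wild-type library 1, -0.66 without knockout library 4 and -0.05 without both. Col1a2 (chromosome 6, 4504814 to 4541555), the second chain of type I, followed the same pattern, with 79.1, 35.9, 32.8, 28.6 and 31.5 CPM against 28.4, 28.4, 28.5, 53.8 and 35.6 CPM. Its log2 fold change was -0.25 ± 0.30 SE (adjusted p = 0.873 by edgeR). It was 0.12 without wild-type library 1, -0.46 without knockout library 4 and -0.09 without both.

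Col1a1 (chromosome 11, 94827050 to 94843868), the major chain of type I, stood at 25.5, 14.9, 11.7, 7.02 and 9.90 CPM in the wild-type-labelled and at 13.0, 12.9, 11.3, 22.8 and 18.8 CPM in the knockout-labelled libraries. Without wild-type library 1 the groups still overlapped, and the log2 fold change moved from 0.19 ± 0.32 SE to 0.53 ± 0.26 SE (adjusted p = 0.921 and 0.848 by edgeR). It was 0.02 without knockout library 4 and 0.36 without both. The 2 chains of type I assemble into a shared molecule, and their counts can be set against each other within a library, where depth cancels. The ratio of Col1a1 to Col1a2 counts was 0.322, 0.415, 0.357, 0.245 and 0.315 in wild-type libraries 1 to 5 and 0.458, 0.453, 0.396, 0.423 and 0.529 in knockout libraries 1 to 5. Wild-type library 2 lay above knockout library 3, and otherwise every knockout-labelled library was higher. The means were 0.331 ± 0.0620 and 0.452 ± 0.0497 (SD, n = 5 each). Neither library that stood apart in level was an extreme of its group in this ratio, which was not tested. The corresponding ratio of Col4a1 to Col4a2 counts was 1.26 ± 0.105 and 1.26 ± 0.132 (SD, n = 5 each), and that of Col6a1 to Col6a2 was 1.68 ± 0.146 and 1.65 ± 0.264.

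**Figure D2:**
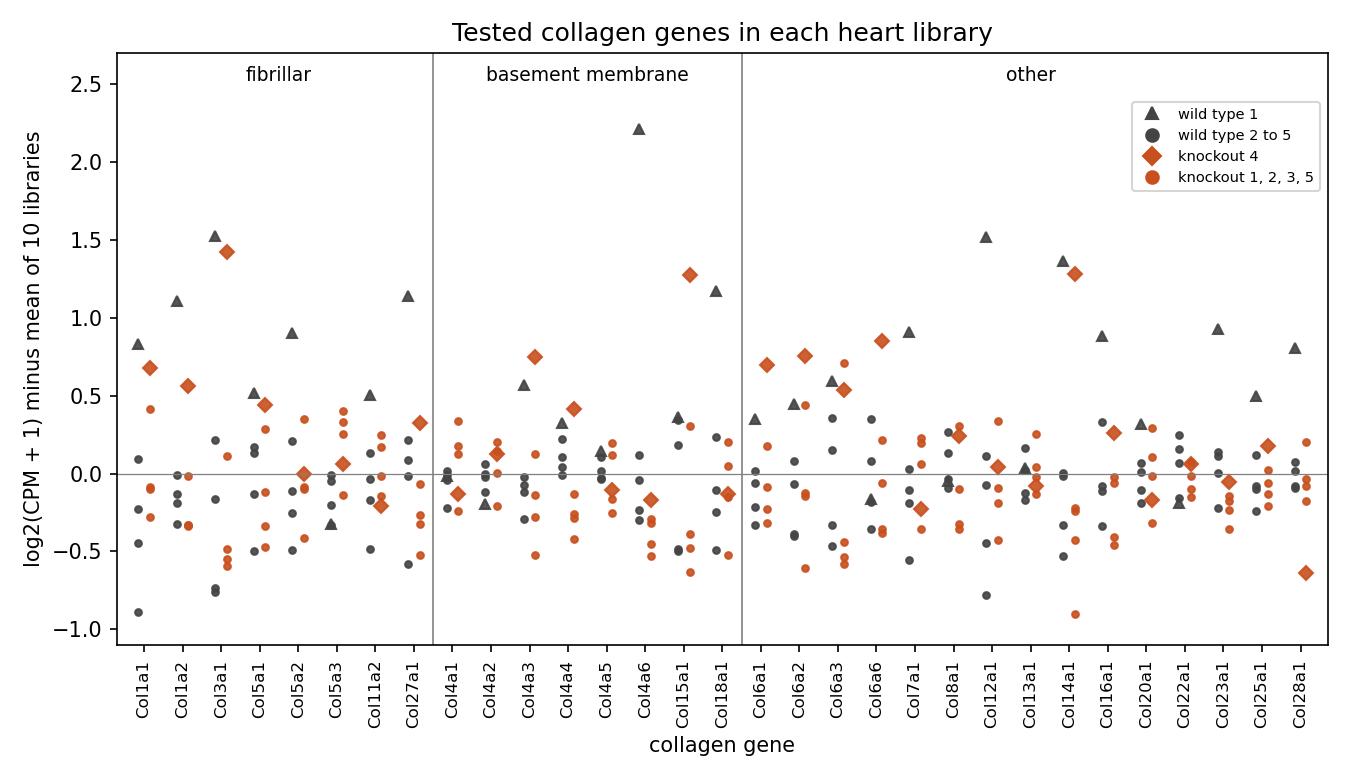
Each point is 1 library, plotted as log2(CPM + 1) of a tested collagen gene minus that gene's mean over the 10 libraries. Wild type 1 (triangles) is highest for 7 of 8 fibrillar genes, whereas Col4a1, Col4a2 and Col4a5 stay within a narrow band.

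Type V chains nucleate fibrils and set their diameter. Col5a3 (chromosome 9, 20681337 to 20726418), a further chain of type V, had the smallest p of all collagen genes. It stood at 8.33, 9.13, 10.3, 8.28 and 10.6 CPM in wild-type libraries 1 to 5 and at 12.9, 13.6, 9.57, 11.1 and 14.4 CPM in knockout libraries 1 to 5. All knockout-labelled libraries other than library 3 lay above every wild-type-labelled one. The log2 fold change was 0.41 ± 0.12 SE with an unadjusted p of 0.00705 and an adjusted p of 0.572 by edgeR, so it did not pass. Adjusted p ranged down to 0.229, its value by DESeq2, and the log2 fold change was 0.37 without wild-type library 1 and 0.40 without knockout library 4 as well. Its partner Col5a1 stood at 24.1, 18.2, 15.01, 11.5 and 18.7 CPM against 15.2, 12.9, 11.7, 22.8 and 20.4 CPM. The groups overlapped, with a log2 fold change of -0.08 that was 0.07 without wild-type library 1 and -0.22 without knockout library 4. Col5a2 had -0.18 with all libraries and 0.12 without wild-type library 1.

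Col27a1, a fibrillar chain best known from cartilage, stood at 9.77, 4.19, 3.82, 2.26 and 4.66 CPM against 2.40, 3.06, 2.90, 5.13 and 3.65 CPM. Wild-type library 1 set much of its log2 fold change of -0.53 ± 0.35 SE (adjusted p = 0.766 by edgeR), which was -0.13 without it. Col11a2, a cartilage fibril chain, lies on chromosome 17 (34258108 to 34285664), 5.26 Mb from Mapk13, and is the 1 collagen gene within 20 Mb of it. In that window 6.29% of the tested genes, 35 of 556, passed the test. Col11a2 was not among them, with 97, 45, 31, 12 and 55 counts against 30, 42, 21, 28 and 54 and a log2 fold change of -0.03 ± 0.32 SE (adjusted p = 0.990 by edgeR). Its log2 fold change was 0.25 without wild-type library 1. The fibrillar genes Col2a1, Col11a1 and Col24a1, found mainly in cartilage and developing bone, had 33, 36 and 32 counts over the 10 libraries together and were not tested. Of the 36 Col11a1 counts, 27 were in wild-type library 1, which also had the highest sum of cartilage markers. Of the 33 Col2a1 counts, 8 were in that library and 8 in wild-type library 4. Of the 32 Col24a1 counts, 15 were in wild-type library 1. The part of the cartilage markers in these values was not tested.

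**Figure D3:**
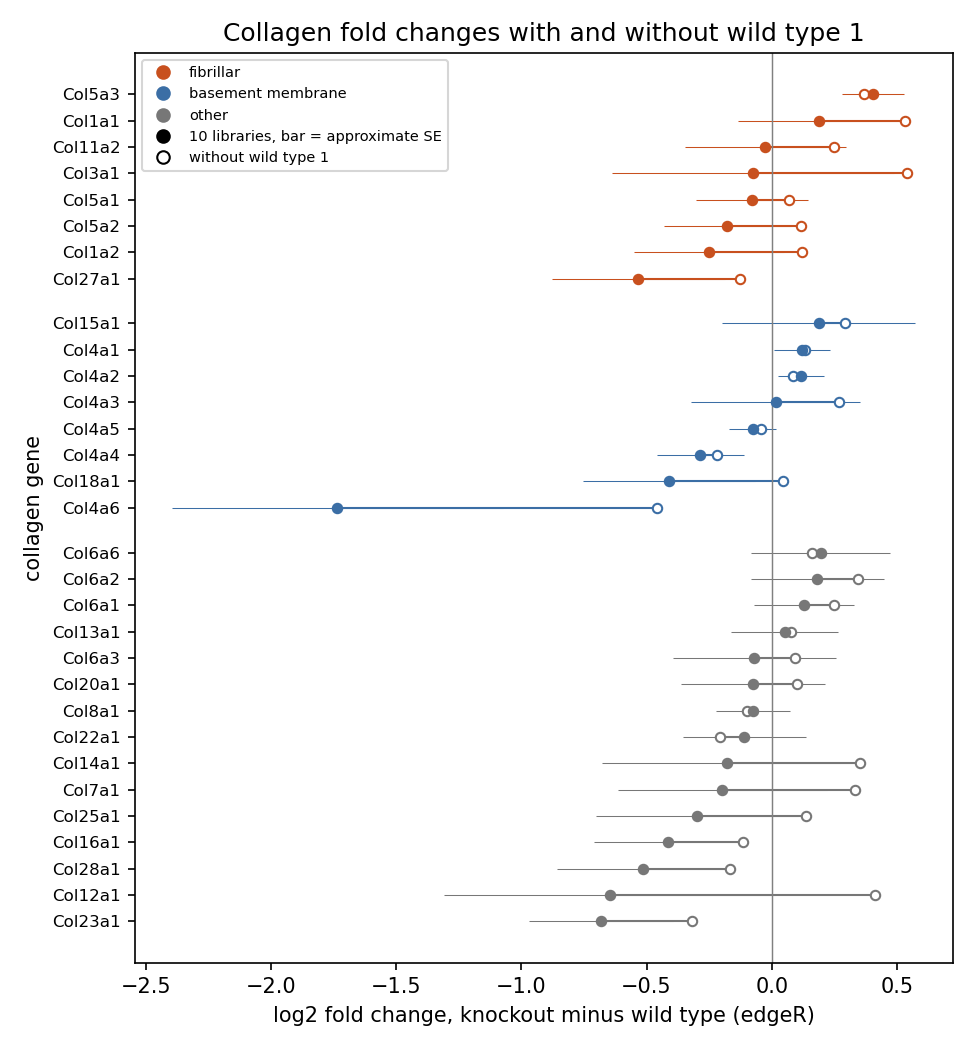
Filled points give the edgeR log2 fold change (knockout minus wild type) of each tested collagen gene with 10 libraries, thin bars its approximate SE, and open points, joined to them by thick lines, the value without wild type 1. With 10 libraries 21 of 31 points lie below 0, and without wild type 1 only 9 do.

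As sets, 6 of 8 tested fibrillar genes had a log2 fold change below 0 with a median of -0.08, 4 of 8 basement membrane genes with a median of -0.03, and 11 of 15 other genes with a median of -0.11. The median over all 16700 tested genes was -0.01. Without wild-type library 1 the counts below 0 were 1 of 8, 3 of 8 and 5 of 15, and the medians were 0.19, 0.06 and 0.10, where all genes had a median of 0.00340. Without knockout library 4 alone, 24 of 31 collagen genes were below 0. Without both libraries the medians were 0.03, -0.06 and -0.06, with 17 of 31 below 0. Scaled by library totals alone, 24 of 31 were below 0, while the median over all genes also fell, to -0.12. The set of collagen genes therefore had no direction that held across these choices. Wild-type library 1 was the highest of the 10 for 17 of the 31 tested collagen genes, against 27.8% of all tested genes.

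Col4a1 and Col4a2, which encode the chains of the main type IV trimer, were steady as well as abundant. Col4a1 stood at 175, 179, 172, 151 and 175 CPM in wild-type libraries 1 to 5 and at 192, 199.95, 149.6, 161 and 223 CPM in knockout libraries 1 to 5. Col4a2 stood at 122, 138, 146, 129 and 139.9 CPM and at 141, 155, 121, 153 and 162 CPM. The ranges overlapped for both, and the highest library was 1.49 and 1.33 times the lowest. Their log2 fold changes were 0.12 ± 0.11 SE and 0.12 ± 0.09 SE (adjusted p = 0.844 and 0.811 by edgeR). Endothelial markers, from cells that make much of this network, summed to 726 CPM in wild-type library 1 and to 794 to 966 CPM in the other 9, and their part in these values was not tested. The genes lie head to head and share 311 annotated exon bases on opposite strands. Because the strand setting is not given in the sources used here, reads in that part could belong to either gene.

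Col4a5, on the X chromosome, encodes a chain that joins Col4a3 and Col4a4 or Col4a6 in more specialised trimers. Its levels were 51.2, 46.7, 49.8, 45.1 and 44.9 CPM against 41.04, 50.03, 38.5, 42.7 and 53.0 CPM, with a log2 fold change of -0.08 ± 0.09 SE (adjusted p = 0.874 by edgeR). The wild-type range lay within the wider knockout range. Col4a6 was near 1 CPM in 9 libraries and far higher in wild-type library 1, with 10.5, 1.69, 1.40, 1.01 and 1.11 CPM against 0.984, 1.02, 0.714, 1.20 and 0.809 CPM. Its log2 fold change of -1.74 ± 0.66 SE (unadjusted p = 0.0236, adjusted p = 0.674 by edgeR) was -0.46 without that library.

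Col4a4 (chromosome 1, 82426144 to 82564800) stood at 7.95, 6.08, 6.34, 7.31 and 6.69 CPM in the wild-type-labelled and at 4.33, 4.86, 5.52, 8.50 and 4.97 CPM in the knockout-labelled libraries. Knockout library 4 was the highest of all 10, and the other 4 knockout-labelled libraries were all below the lowest wild-type-labelled one. The log2 fold change was -0.28 ± 0.17 SE with all libraries (adjusted p = 0.751 by edgeR). Without knockout library 4 it was -0.48 ± 0.12 SE, with an unadjusted p of 0.00188 and an adjusted p of 0.295 by edgeR, so it did not pass either. In that comparison it was the 1 collagen gene whose groups did not overlap, as in 1.57% of all tested genes in the same direction and 1.54% in the other. With wild-type library 1 also left out it was again the 1 tested collagen gene without overlap (2.39% of all genes lower, 2.44% higher). Its partner Col4a3, which overlaps it at 159 exon bases, had 178, 67, 69, 47 and 80 counts against 51, 37, 55, 141 and 58. Its log2 fold change was 0.01 ± 0.34 SE, and its highest values were in wild-type library 1 and knockout library 4. The fold change was 0.27 without wild-type library 1, -0.34 without knockout library 4 and -0.10 without both.

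**Figure D4:**
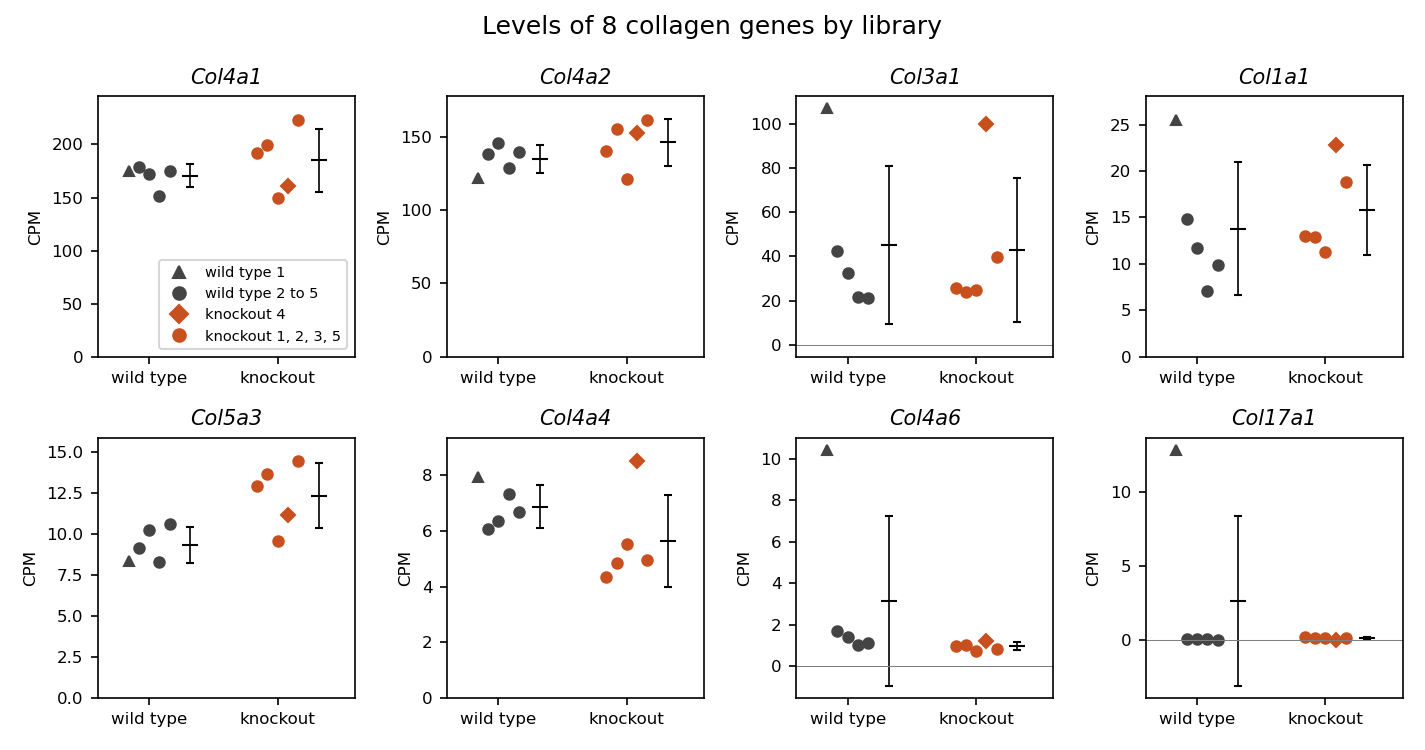
CPM of 8 collagen genes by library, with the mean and SD of each group (n = 5) beside the points. Col4a1 and Col4a2 differ little between libraries, Col3a1 and Col1a1 have high values in wild type 1 and knockout 4, Col5a3 is higher in 4 of 5 knockout libraries than in any wild-type one, and Col4a6 and Col17a1 are high in wild type 1 (12.9 CPM for Col17a1).

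Col15a1 and Col18a1 encode proteoglycan-like collagens of basement membrane zones, the second being the parent of endostatin. Col15a1 stood at 19.1, 18.9, 10.1, 10.2 and 16.7 CPM against 10.9, 10.2, 9.09, 36.8 and 18.3 CPM. Knockout library 4 was again the highest, and the log2 fold change of 0.19 ± 0.39 SE became -0.20 without it and wild-type library 1. Col18a1 followed wild-type library 1 instead, with 508, 209, 114, 59 and 156 counts against 98, 148, 58, 121 and 153, and its log2 fold change went from -0.41 to 0.04 without that library.

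No tested type VI gene passed the test by edgeR, and Col6a1, Col6a2 and Col6a3 were high in the same hearts. Col6a1 stood at 35.3, 27.9, 23.6, 21.7 and 26.4 CPM against 23.3, 25.9, 21.9, 45.2 and 31.2 CPM. Col6a2 stood at 23.2, 17.7, 12.4, 12.6 and 15.9 CPM against 14.99, 15.2, 10.6, 28.9 and 23.0 CPM. Col6a3 was at 20.3, 17.03, 10.2, 9.19 and 14.6 CPM against 8.70, 9.37, 8.43, 19.4 and 22.1 CPM. All 3 had their highest wild-type value in library 1 and their lowest knockout value in library 3, and knockout libraries 4 and 5 were the highest of their group. Their log2 fold changes were 0.13, 0.18 and -0.07, each with an adjusted p of at least 0.907 by edgeR. Without knockout library 4 they were -0.08, -0.04 and -0.23. Col6a6, an alternative chain of the trimer, was at 4.22, 4.17, 3.57, 5.196 and 6.46 CPM against 3.50, 4.61, 5.81, 9.54 and 3.56 CPM, with 0.20 ± 0.28 SE. It was not raised in wild-type library 1, and its value was -0.11 without knockout library 4. Col6a4 and Col6a5 had 19 and 103 counts in all and were not tested, and 72 of the Col6a5 counts were in wild-type library 1.

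Fibril-associated collagens sit on the surface of fibrils. Col14a1, the most abundant of them here, was at 30.1, 11.1, 7.36, 8.61 and 10.96 CPM against 5.47, 7.99, 9.38, 28.4 and 9.22 CPM. As for Col3a1, a single library of each label stood out, the same 2 hearts, and the remaining 8 lay between 5.47 and 11.1 CPM. Its log2 fold change was -0.18 ± 0.50 SE. It was 0.35 without wild-type library 1, -0.77 without knockout library 4 and -0.25 without both. Col12a1 was at 5.12, 1.304, 1.03, 0.241 and 0.566 CPM against 0.590, 1.69, 0.9996, 1.20 and 0.868 CPM, and its direction turned from -0.65 ± 0.66 SE to 0.41 without wild-type library 1. Col16a1 was at 6.92, 4.42, 3.08, 2.41 and 2.98 CPM against 2.12, 3.13, 2.24, 4.15 and 3.23 CPM, with -0.42 ± 0.29 SE and -0.11 without that library. For Col20a1 and Col22a1, of the same family, the log2 fold changes were -0.07 and -0.11, and 0.10 and -0.21 without wild-type library 1. Col9a1, Col9a2, Col9a3 and Col19a1 had 12 to 107 counts in all and were not tested.

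Col8a1 encodes a short-chain collagen of vessel walls and was among the steadier members, at 14.0, 17.7, 16.0, 13.6 and 14.2 CPM against 13.5, 11.4, 11.1, 17.3 and 18.2 CPM. The ranges overlapped and the log2 fold change was -0.08 ± 0.15 SE. Its partner Col8a2 and the growth plate collagen Col10a1 had 111 and 85 counts in all, 65 and 51 of them in wild-type library 1, and were not tested. Of the exon length of Col10a1, 20.8% is shared with Nt5dc1 on the opposite strand. Col7a1, which anchors epithelium to the matrix beneath, was at 3.34, 1.15, 1.03, 0.577 and 1.36 CPM against 1.42, 1.65, 0.809, 0.973 and 1.71 CPM. Its log2 fold change was -0.20 ± 0.42 SE, and 0.33 without wild-type library 1.

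Among membrane-spanning types, Col17a1, a component of the junctions that fasten epithelial cells to their basement membrane, was nearly confined to wild-type library 1. It had 585 counts there, 2, 3, 2 and 1 in wild-type libraries 2 to 5 and 6, 4, 3, 0 and 6 in knockout libraries 1 to 5, where a count of 0 allows up to 3. It did not pass the filter and was described after its values were seen. That library was also the one with every airway and lung marker at 1 CPM or more, whose part in this value was not tested. Col23a1 was at 4.31, 2.02, 1.40, 2.07 and 1.80 CPM against 1.18, 1.37, 1.48, 1.69 and 1.53 CPM. Its log2 fold change of -0.68 ± 0.29 SE (unadjusted p = 0.0364, adjusted p = 0.709 by edgeR) was -0.32 without wild-type library 1. Col13a1 and Col25a1 had 0.05 and -0.30, and 0.08 and 0.14 without wild-type library 1. Outside the membrane-spanning types, Col28a1, a collagen of peripheral nerve, was at 3.29, 1.33, 1.31, 1.59 and 1.49 CPM against 1.18, 1.83, 1.33, 0.584 and 1.41 CPM. Its log2 fold change was -0.51 ± 0.34 SE, and -0.17 without wild-type library 1. Schwann cell markers summed to 69.3 CPM in that library and to 25.2 to 32.4 CPM in the other 9, and their part in the Col28a1 value was not tested. Col26a1, also outside the membrane-spanning types, had 49 counts in all.

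The spread within groups differed from gene to gene. The within-group SD of log2(CPM + 1) was 0.90 for Col3a1, 0.78 for Col14a1 and 0.64 for Col15a1, against 0.18 for Col4a1, 0.14 for Col4a2 and 0.15 for Col4a5. Within the basement membrane class it reached 0.75 for Col4a6. The median SD was 0.46 over the 8 fibrillar, 0.33 over the 8 basement membrane and 0.34 over the 15 other tested genes, and 0.19 over all tested genes. Without wild-type library 1 and knockout library 4 the medians were 0.29, 0.17, 0.24 and 0.14. In knockout library 4 the level was 3.85 times the median of the other 9 for Col3a1, 3.36 times for Col15a1, 3.07 times for Col14a1 and 0.92 times for Col4a1. The 12 fibroblast markers summed to 1771 CPM in it, the highest knockout-labelled sum and below every wild-type-labelled one. This lay within the 1612 to 2134 CPM of the other libraries apart from wild-type library 1. The list's fibril-binding member Lum was at 69.6 CPM against 19.9 to 42.2 CPM in those 8. Lamc1 (185 CPM) was the highest of the 10 libraries, and Pdgfra (52.6 CPM) lay above those 8. Dcn, also fibril-binding, (504 CPM), Ly6a (57.4 CPM), Mfap5 (7.95 CPM) and Scara5 (24.6 CPM) were the lowest of the 10 libraries. The list's remaining members lay within the range of those 8. The activated fibroblast list summed to 283 CPM in knockout library 4, where those 8 had 168 to 270 CPM. Acta2, which is also among the smooth muscle markers, made up 123.6 CPM of it. Postn was at 22.0 CPM against 5.68 to 16.9 CPM, and Fap (5.13 CPM) and Ddah1 (4.25 CPM) were the highest of the 10 libraries. Ccn2 (120.7 CPM), Meox1 (2.465 CPM) and Lox (3.28 CPM) were the lowest of the 10 libraries. Cthrc1, Comp and Tnc lay within the range of the others. The 10 smooth muscle and pericyte markers summed to 1445 CPM in knockout library 4, the highest of the 10 libraries. In that list Acta2, Abcc9 (463 CPM) and Pdgfrb (67.1 CPM) were the highest of the 10 libraries. So were Cspg4 (14.5 CPM), Kcnj8 (28.8 CPM) and Notch3 (30.2 CPM). Myh11 (25.98 CPM), Tagln (9.18 CPM), Cnn1 (0.292 CPM) and Rgs5 (683 CPM) lay within the range of the others. The cardiomyocyte sum, 72838 CPM, was also the highest in it. The part of these markers in the collagen values was not tested.

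The genes that modify, cleave, cross-link and bind collagen were not called either. Of 22 genes for chain modification and folding, 21 were tested and 0 were called by edgeR, DESeq2 or voom, with 7 above and 14 below 0 and a median log2 fold change of -0.06. The lysyl hydroxylase gene Plod3 stood at 20.4 ± 2.03 and 18.1 ± 1.40 CPM (SD, n = 5 each), and the glycosyltransferase gene Colgalt2 at 6.43 ± 1.09 and 7.87 ± 1.53 CPM. Plod1 and the prolyl hydroxylase gene P3h2 had log2 fold changes of 0.11 and 0.38, and 0.09 and 0.55 without wild-type library 1. For P3h2 the unadjusted p was then 0.0263 and the adjusted p 0.715 by edgeR. Of 14 genes for procollagen cleavage and cross-linking, 0 were called, with 3 above and 11 below 0 and a median of -0.21. An unadjusted p under 0.05 by edgeR was found for 2 of the 14, against 6.86% of all tested genes. These were the lysyl oxidase-like gene Loxl4 at 0.941 ± 0.580 and 0.435 ± 0.116 CPM and the procollagen protease gene Tll2 at 0.5005 ± 0.114 and 0.313 ± 0.0870 CPM. The log2 fold change of Loxl4 went from -1.103 to -0.66 without wild-type library 1 (unadjusted p = 0.0266 and 0.102 by edgeR), and that of Tll2 from -0.66 to -0.75. For Tll1, a related protease gene, it went from -1.07 to -0.47, and for Loxl3 from -0.31 to -0.02. The median of this list was -0.00313 without wild-type library 1.

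Collagen-binding matrix genes had 0 calls among 17 tested, with 16 below 0 and a median of -0.32. Of the 17, 3 had an unadjusted p under 0.05 by edgeR, against 6.86% of all tested genes. Without wild-type library 1, 9 of 17 were below 0 and the median was -0.00546. The small proteoglycan gene Dcn, whose product coats fibrils, stood at 773 ± 244 and 558 ± 33.5 CPM (SD, n = 5 each). Its log2 fold change was -0.47 (unadjusted p = 0.0221, adjusted p = 0.666 by edgeR). It was -0.25 without wild-type library 1 (unadjusted p = 0.0116, adjusted p = 0.603 by edgeR). The wild-type values of Dcn, 631 to 1201 CPM, all lay above its knockout values, 504 to 593 CPM. Such a pattern, lower in the knockout, was shown by 0.898% of all tested genes, and by 1.35% without wild-type library 1. The fibulin gene Fbln1 had -0.54, the cartilage matrix gene Comp -2.05 and the small proteoglycan gene Fmod -1.14, which became -0.32, -0.60 and -0.63 without wild-type library 1. Among partners of type IV in the basement membrane 0 of 16 tested were called, with 11 above 0 and a median of 0.10. Of the 16, 1 had an unadjusted p under 0.05 by edgeR. The perlecan gene Hspg2 stood at 163 ± 17.004 and 209 ± 39.2 CPM, with a log2 fold change of 0.36 (unadjusted p = 0.0163, adjusted p = 0.642 by edgeR) and 0.32 without wild-type library 1. Pxdn, the peroxidase that cross-links type IV, had 27.0 ± 3.31 and 32.4 ± 8.26 CPM, and the highest value, 45.5 CPM, was in knockout library 4. The laminin genes Lamb3 and Lamc3 had log2 fold changes of 0.31 and -1.103, and 0.31 and -0.40 without wild-type library 1. Among collagen receptors 0 of 11 tested were called and 0 had an unadjusted p under 0.05 by edgeR. The receptor kinase gene Ddr2 stood at 39.6 ± 13.2 and 30.9 ± 3.86 CPM. Wild-type library 1 held 61.5 CPM of it, and its log2 fold change went from -0.36 to -0.14 without that library. Mrc2, Antxr1 and Itga10 had -0.19, -0.24 and -0.38, and -0.14, 0.03 and -0.13 without it. None of 18 genes of the TGF-beta axis, the main inducer of fibrillar collagen, was called by edgeR (median -0.04, 0 with an unadjusted p under 0.05), nor by DESeq2 or voom. Ltbp2, whose product belongs to the latent TGF-beta binding protein family, had -1.22, and -0.01 without wild-type library 1. Tgfbr3 and Tgfbr1, which encode receptors, had -0.10 and -0.14, and -0.05 and -0.01 without that library.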

How the data were processed

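Bulk RNA sequencing of 10 heart libraries, 5 per genotype label, was used. Per the labels' protocols, STAR 2.5.2 placed the reads on GRCm39, and the submitters' processing notes name RSEM 1.3.0. The authors deposited an expected count for each gene, and all values were whole numbers. Annotation release and strand setting: not given in the sources used here. Symbols, positions and exon lengths came from GENCODE M39, in which 78168 of 78298 identifiers were found.

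All genes were fitted in edgeR 4.0.16 (R 4.3.3) with its quasi-likelihood F test, scaled with TMM, filtered by filterByExpr (minimum count 10) and with robust dispersions, without covariates. An approximate standard error was taken as |log2 fold change|/sqrt(F). CPM used TMM factors on totals of tested genes. The labels name no batch and no pairing. They do not say how the libraries of a group were separated beyond being different samples, so the p-values cover only the spread among them, which may be technical. Within groups no pair of libraries looked like a duplicate (lowest chi-square per degree of freedom 9.2).

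Alternatives were DESeq2 1.42.0, limma 3.58.1 voom with quality weights, other scalings and filters, a threshold of 0.01, mitochondrially encoded genes left out, each library left out, and wild-type library 1 with knockout library 4 left out. Counting directions without wild-type library 1, knockout library 4 or both was chosen after seeing the data. The fit was tested on simulated data. Members, classes and lists were chosen with earlier results of these data known. Values in every library are given for collagen genes called or without overlap, the 4 fibrillar, 4 basement membrane and 6 other members highest per exon length, the 3 smallest p of each class, and members that turned direction and moved by 0.5 or more without wild-type library 1. From each pathway list up to 4 genes by smallest p are named. One gene that this rule selects is not reported here. Per-library counts of Col4a3, Col11a2, Col17a1 and Col18a1 were added after their values were seen.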

Additional observations from a re-analysis of the deposited data

Results flagged for a closer look

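In groups of 5 libraries, the gap between the highest or lowest library and its neighbour was compared with the group's range, and a gap above 0.71 of the range (Dixon's limit) was noted. All 44 collagen genes and the 3 class sums were examined in both groups, and 25 of 94 groups had such a library. For independent groups chance notes about 1 in 20, but these genes were measured in the same libraries. Wild-type library 1 accounted for 16 of them, all high. It had 79.1 CPM of Col1a2, 107 of Col3a1, 3.91 of Col4a3, 10.5 of Col4a6, 3.34 of Col7a1, 5.12 of Col12a1, 30.1 of Col14a1, 4.31 of Col23a1 and 3.29 of Col28a1. The same library had 12.9 CPM of Col17a1, 0.2197 of Col6a4, 1.58 of Col6a5, 1.43 of Col8a2, 1.12 of Col10a1 and 0.593 of Col11a1, and a fibrillar sum of 295 CPM. Knockout library 4 was high for 5 genes, with 53.8 CPM of Col1a2, 99.8 of Col3a1, 8.50 of Col4a4, 28.4 of Col14a1 and 0.454 of Col26a1. Wild-type library 4 was low for Col4a1, at 151 CPM, and for the basement membrane sum, at 349 CPM. Of genes with few counts, Col6a4 was high in knockout library 2, at 0.141 CPM, and Col9a1 in knockout library 5, at 0.180 CPM.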

How the results depend on the processing

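No alternative called a collagen gene, so the counts of 0 higher and 0 lower held under DESeq2, voom, every scaling and filter, the 0.01 threshold and every library left out. The count over all genes was 59, and 130 by DESeq2 and 91 by voom with quality weights. It was 47 to 75 when 1 library was left out. The basement membrane median of -0.03 ranged from -0.32 (without knockout library 4) to 0.064 (without wild-type library 1) over the 10 such fits; the cause was not tested. The fibrillar median ranged from -0.22 to 0.19 and that of other types from -0.24 to 0.10. The number of collagen genes below 0, 21 of 31, was 9 without wild-type library 1. Sign changes of genes that no fit called were not counted as reversals. Lengths from the longest transcript moved the per-length ratio of Col1a1 to Col1a2 from 0.754 to 0.359 and that of Col6a1 to Col6a2 from 3.13 to 1.81, in all libraries alike. Counting Col15a1 and Col18a1 as other types gave class medians of -0.03 and -0.11, as before to 2 decimals. No paired analysis was possible because the labels give no replicate numbers shared by the groups. The 13 collagen genes that did not pass the filter were low in most libraries, Col17a1 with 585 of its 612 counts in wild-type library 1.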
